A study of Caenorhabditis elegans with 2 samples.

Results

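The cuticle collagen genes of Caenorhabditis elegans were examined for peaks of FKH-2, a transcription factor of the forkhead family, in L3 larvae. Genes were chosen by name from the Ensembl gene models of the WBcel235 genome (ce11). All 156 protein-coding genes called col- followed by a number were taken, with 18 collagen genes named for mutant body shape, namely dpy-2, dpy-3, dpy-4, dpy-5, dpy-7, dpy-8, dpy-9, dpy-10, dpy-13, dpy-17, rol-6, rol-8, sqt-1, sqt-2, sqt-3, bli-1, bli-2 and lon-3. The set held 174 of 19973 protein-coding genes. Membership was set by name and not by a peak value, but the choice was made with earlier results of these data known.

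The nematode cuticle is a collagen-rich extracellular matrix that the epidermis secretes anew at each moult. Most of its collagens are short secreted chains with Gly-X-Y repeats, which assemble into triple helices and are cross-linked outside the cell, and their genes are transcribed in successive waves within each moulting cycle. Loss of single collagens can leave animals short and fat (dumpy), helically twisted (roller), blistered or long, and these phenotypes gave the dpy, rol, sqt, bli and lon genes their names.

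Binding was measured by chromatin immunoprecipitation and sequencing (ChIP-seq) in 2 biological replicates of 1 group, whole L3 larvae of mixed sex, of strain OP185. All animals carried unc-119(ed3) III and the integrated transgene wgIs185, a source of FKH-2 with an enhanced green fluorescent protein tag (eGFP-fkh-2) beside the endogenous gene. The antibody is labelled fkh-2, and the labels do not say whether it binds the tag or the protein. No control library and no second condition was analysed here, and whole animals do not separate the epidermis from other tissues.

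The analysed lists were 30000 pooled peaks, 30000 peaks of replicate 1, 24744 of replicate 2 and 203 peaks of an optimal set (IDR, irreproducible discovery rate). IDR is a measure of how well ranks repeat between lists, and the authors derived the set from the pooled and replicate lists. The col-181 peak of this set overlapped no peak of replicate 2, so membership does not show support in both replicates. Peaks were ranked by the authors' own score, with rank 1 the strongest. The score runs from 4.26 to 85.4 in the pooled list, and its scale was not given. The lists give no read numbers, and the depth of sequencing was therefore unknown. The long lists were made as input to IDR. A deposited q-value of at most 0.05 was held by 7297 pooled peaks, 16097 peaks of replicate 1 and 24716 of replicate 2. The pooled list therefore holds many weak regions, and the list of replicate 2 few by this measure. The same rank does not stand for the same q-value in each list. A peak was assigned to the gene with the nearest protein-coding transcript start within 2000 bp of the peak centre, and 20426 pooled peaks found a gene this way. Intervals below are 95% Wilson intervals, or exact Poisson intervals for densities, and cover counting error only.

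The share of cuticle collagen genes with an assigned FKH-2 peak lay a little below that of all genes, and their shares with a strong peak or one present in both replicates lay further below. A pooled peak was assigned to 100 of the 174 genes (57.5%, interval 50 to 64.6), against 61.2% of all protein-coding genes. Of the other 74 genes, 36 had a pooled peak within 2000 bp that lay nearer to another gene, and 38 had none. When every gene with a start within 2000 bp of a peak was counted, and not the nearest alone, 136 collagen genes had a peak and their share was 3.265 percentage points above that of all genes, so the direction turned. The sequence nearest to a gene's starts within 2000 bp had a median length of 2.78 kb at collagen genes and 3.00 kb at all genes. The shares of genes were not corrected for this length, and densities per kb are given below. The nearest-start rule gave 142 collagen peaks in all. A single peak was assigned to 65 genes, 2 peaks to 29, 3 peaks to 5 and 4 peaks to col-14.

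A pooled peak with a q-value of at most 0.05 was assigned to 30 collagen genes (17.2%, interval 12.4 to 23.5), against 21.2% of all genes. A pooled peak that overlapped a peak in the list of each replicate by at least 1 bp was assigned to 15 (8.62%, interval 5.29 to 13.7), against 15.3% of all genes, and 9 remained when the overlap had to cover at least 50% of the pooled peak. Among the 5000 strongest pooled peaks, 17 collagen genes were represented (9.77%, interval 6.19 to 15.1), against 15.2% of all genes. Among the 2000 strongest, 4 were represented (2.30%, interval 0.898 to 5.76), against 6.69%. In these last 3 counts, which are overlapping cuts of the same pooled list, the share of all genes lay above the interval of the collagen genes. For the 5000 strongest peaks it did so narrowly, at 15.2% against an upper limit of 15.1%. An IDR peak was assigned to 2 collagen genes, col-181 and col-94 (1.15%, interval 0.316 to 4.09), against 0.706% of all genes. These are descriptions of the lists, with no test across genes.

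**Figure D1:**
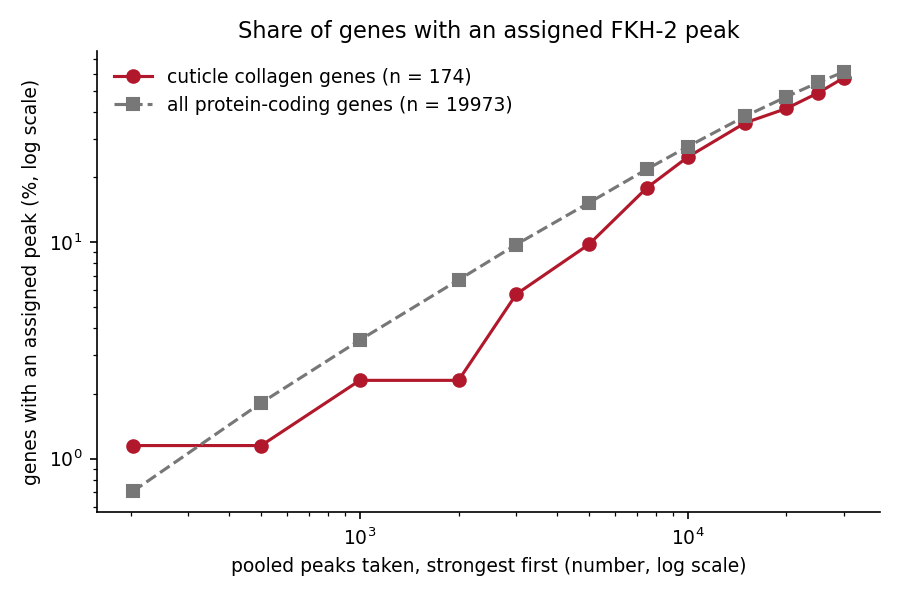
Percentage of the 174 cuticle collagen genes (circles) and of all 19973 protein-coding genes (squares) with an assigned peak, as more of the pooled list is taken from the strongest peak down, both axes on log scales. The collagen line lies below that of all genes from 500 peaks (1.15% against 1.81%) to 30000 peaks (57.5% against 61.2%), and above it at the 203 strongest peaks (1.15% against 0.706%).

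Both IDR peaks near collagen genes covered a whole small structural RNA gene. The peak of col-181 (WBGene00000754, chrX:12104930-12106102, plus strand) was at chrX:12106023-12106312, with a score of 23.8 and rank 163 in the pooled list. Its centre lay 1022 bp downstream of the start of col-181, between genes, and the peak overlapped the last bases of that gene. It overlapped a replicate 1 peak of rank 248 and no peak of replicate 2. The peak held all 73 bases of the tRNA gene WBGene00014540, at chrX:12106147-12106219 on the minus strand.

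The peak of col-94 (WBGene00000669) had a score of 23.3 and rank 174, and its centre lay 1771 bp upstream in an intron of the dynein heavy chain gene dhc-4. It overlapped peaks of both replicates, of rank 323 in replicate 1 and 3701 in replicate 2. It held a whole small nuclear RNA (snRNA) gene. The col-181 peak held no forkhead core of the strict or degenerate forms described below in the bases shown, but held GAGAGA 2 times. The sequence of the col-181 peak is shown because it is the strongest peak near any cuticle collagen gene and holds the tRNA gene, in capitals. It is the plus strand of the RefSeq WBcel235 genome, 5′ to 3′. The first 80 bases, in the 3′ UTR of col-181, are left out and chrX:12106103-12106312 is shown.
col-181 peak: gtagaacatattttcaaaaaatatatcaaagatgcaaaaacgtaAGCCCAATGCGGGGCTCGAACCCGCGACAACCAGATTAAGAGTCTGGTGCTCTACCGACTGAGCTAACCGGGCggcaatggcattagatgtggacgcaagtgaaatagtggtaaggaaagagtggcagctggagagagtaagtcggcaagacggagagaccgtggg

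Peaks whose centre lay in or within 200 bp of a tRNA, snRNA, snoRNA or rRNA gene made up 3 of the 142 collagen peaks (2.11%). They made up 1.15% of all assigned pooled peaks. Among assigned IDR peaks these were 2 of 2 for collagen genes and 12 of 142 for all genes (8.45%). The third collagen peak of this kind belonged to col-185, had rank 23424 and held the tRNA gene WBGene00014413. Of the 31-base windows in the col-181 and col-94 peaks, 22.7% and 29.6% also occurred elsewhere in the genome, while the median over all collagen peaks was 0. With the peaks beside small RNA genes left out, no IDR peak near a collagen gene was left. Whether the signal at these 2 sites belongs to the small RNA gene or to the collagen gene cannot be told apart from peak lists, and the part of the repeated windows was not tested.

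Below these, 14 further collagen genes had a peak that overlapped both replicates. The strongest are given with their ranks in each list. The col-81 peak ranked 620 in the pooled list, 7105 in replicate 1 and 14418 in replicate 2. It was 1481 bp upstream of col-81, and the start of ram-2 was also within 2000 bp. The col-63 peak ranked 958, 1675 and 8043, and was 619 bp upstream in the 3′ UTR of the homeobox gene ceh-8, whose start was also in reach. These 2 peaks and the 2 IDR peaks were all the collagen peaks among the 2000 strongest, and each lay outside the collagen gene's 500 bp promoter.

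The col-132 peak ranked 2352 in the pooled list, 6566 in replicate 1 and 5582 in replicate 2, with its centre 114 bp inside the gene, in coding sequence. It was the highest-ranked collagen peak within 500 bp of its start. The col-140 peak, also in coding sequence, ranked 6286, 6877 and 18083. The col-72 peak, in an intron 283 bp from the start, ranked 6462, 2525 and 12292. The peaks of col-128, col-105, col-125 and col-158 ranked from 9027 to 11695 in the pooled list, all inside their own genes. Their best rank in a replicate was 2939, that of col-158 in replicate 2. The remaining supported peaks belonged to sqt-1, dpy-10 and dpy-7 and, at pooled ranks 14069 to 25582, to col-187 and col-173.

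Over all 142 collagen peaks the ranks were ordinary. Their median pooled rank was 14288 and their median score 6.33, from 4.32 to 23.8, against 14894 and 6.21 for all assigned peaks. Of them, 72 overlapped a peak of replicate 1 (50.7%, against 58.5% of all assigned peaks) and 61 one of replicate 2 (43.0% against 40.7%). Neither replicate was overlapped by 27 (19.0% against 18.6%). Both were overlapped by 18 (12.7%, interval 8.17 to 19.1), against 17.9% of all assigned peaks. The 18 peaks stood on 16 distinct pairs of replicate peaks, because 2 pooled peaks of col-187 and 2 of sqt-1 overlapped the same replicate peaks.

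Peaks supported by both replicates lay mostly over 500 bp from the start, at collagen genes as at all genes. Within 500 bp on either side were 6 of the 18 at collagen genes (33.3%), against 42.1% at all genes. Among all 142 peaks, 29 (20.4%, interval 14.6 to 27.8) had their centre within 500 bp upstream of the start, close to the 19.9% of all assigned peaks, and another 29 lay within 500 bp downstream. The median distance was 626 bp against 692 bp. Of the 18 peaks supported by both replicates, 1 was within 500 bp upstream (5.56%), that of dpy-7, against 25.3% of the 3652 supported peaks of all genes. Inside the gene or downstream of the start, within 500 bp, were 5 (27.8% against 16.8%). With 18 peaks these shares are coarse.

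**Figure D2:**
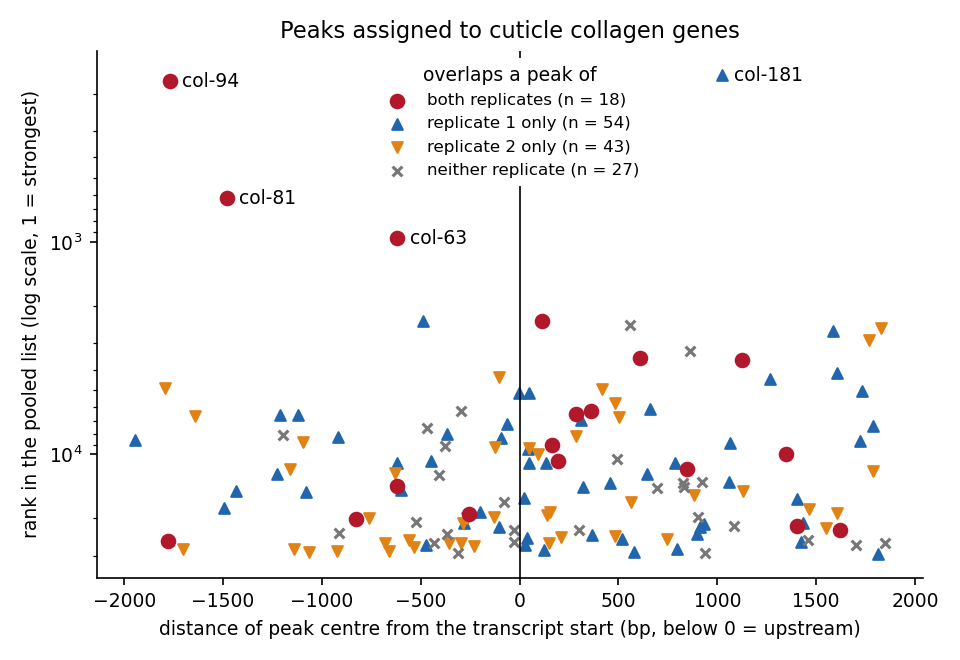
Each point is 1 of the 142 pooled peaks assigned to a cuticle collagen gene, by the distance of its centre from the transcript start in bp (below 0 upstream) and its pooled rank (log scale, strongest at the top), with symbols for overlap with the replicate lists. The 4 named peaks, col-181, col-94, col-81 and col-63, are those ranked above 1000, and the nearest to its start of them lies 619 bp from its start.

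The share of collagen peaks in coding sequence was above that of all peaks, and so was the share of coding sequence among the bases that could be assigned. The peak centre was in coding sequence for 57 of 142 peaks (40.1%, interval 32.4 to 48.4), against 31.1% of all assigned peaks, and 46 of the 57 were in the assigned collagen gene itself. Coding sequence made up 38.0% of the bases nearest to a collagen start, against 27.8% for all genes. Introns made up 20.3% against 33.7%, and the median gene span was 1220 bp against 2027 bp. Per kb of the coding bases, collagen genes had 0.31 coding peaks (interval 0.235 to 0.401), against 0.351 for all genes. They had 0.318 intergenic peaks per kb, against 0.319. Over all features they had 0.293 (interval 0.247 to 0.345), against 0.314. For peaks supported by both replicates the density was 0.0371 per kb (interval 0.022 to 0.0587), against 0.0561, and in intergenic sequence it was 0.0353 (interval 0.013 to 0.0768), against 0.0691. The GC content of the coding bases was 52.0% at collagen genes and 42.6% at all genes. The part of base composition in these densities was not tested.

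**Figure D3:**
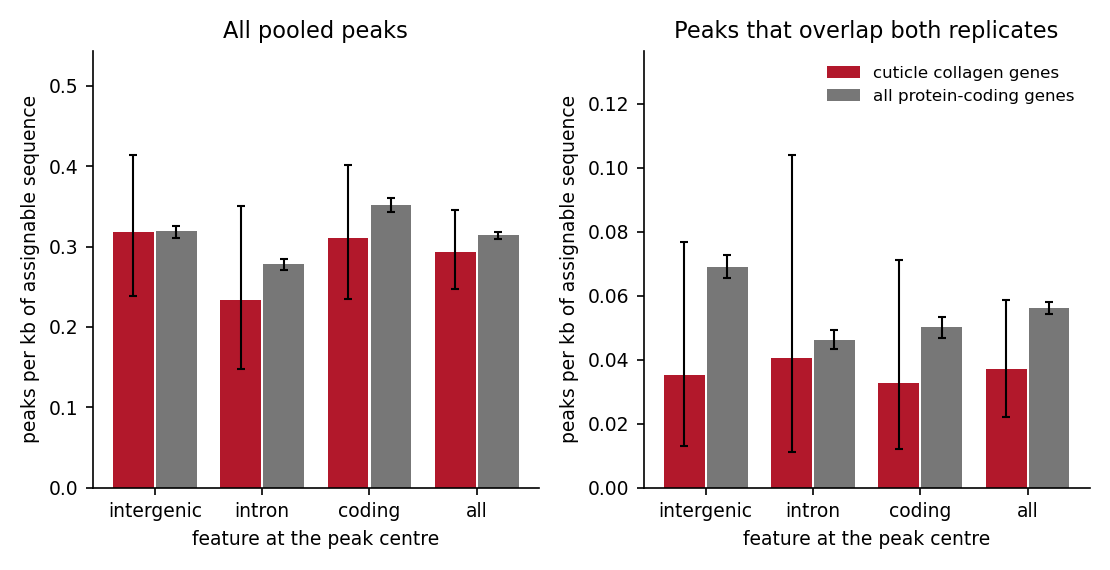
Bars give pooled peaks per kb of sequence nearest to a gene's start within 2000 bp, for cuticle collagen genes and all protein-coding genes, by the feature at the peak centre, with exact Poisson 95% intervals. UTRs and other exons, which held few peaks, have no bar of their own and are counted in the bar for all features. Of the bars drawn for collagen genes, those for all peaks run from 0.233 (intron) to 0.318 (intergenic), and in peaks that overlap both replicates from 0.0326 (coding) to 0.0406 (intron).

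The furrow collagens, dpy-2, dpy-3, dpy-7, dpy-8, dpy-9 and dpy-10, shape the circumferential furrows of the cuticle, and their loss gives dumpy animals. An assigned pooled peak was present at 3 of 6. The strongest was in coding sequence of dpy-10, 1124 bp from the start, with rank 3597 in the pooled list, 25085 in replicate 1 and 13072 in replicate 2. It stood in the lower 50% of the list of each replicate. A second dpy-10 peak, 295 bp upstream and at rank 26042, overlapped a replicate 2 peak of rank 6499 and also had the start of dpy-2 in reach.

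The dpy-7 peak was 255 bp upstream, in the 3′ UTR of the neighbouring gene glb-16, and ranked 19198 in the pooled list, 25475 in replicate 1 and 21988 in replicate 2. It overlapped both replicates but ranked low in all 3 lists. The dpy-8 peak, 280 bp upstream between genes, ranked 21053 and overlapped a replicate 1 peak of rank 6719 and none of replicate 2. In the list of replicate 2, dpy-8 had a peak of its own at rank 3554, 119 bp downstream of the start. The replicates therefore placed their dpy-8 peaks on different sides of the start. At dpy-2 and dpy-3 only replicate 1 had assigned peaks, at ranks 23284 and 25118. No list had a peak assigned to dpy-9.

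Of the other 12 body shape collagens, 9 had an assigned pooled peak (75.0%), against 61.2% of all genes. The roller and dumpy gene sqt-1 (WBGene00005016, chrII:11336693-11337837) was the only member with 3 pooled peaks that each overlapped both replicates. The first lay in its coding sequence, 610 bp from the start, and ranked 3534 in the pooled list, 3826 in replicate 1 and 20737 in replicate 2. The other two lay beyond the gene, 1402 and 1620 bp from the start, at pooled ranks 21728 and 22836. They shared 1 replicate 1 peak of rank 8652 and 1 replicate 2 peak of rank 2196, which was the strongest replicate 2 peak of sqt-1. The order of these sites was thus reversed between the replicates.

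The dumpy gene dpy-13 had a coding peak at pooled rank 5752 that overlapped a replicate 2 peak of rank 7280 and none of replicate 1. The roller gene sqt-2 had its strongest peak at rank 6151, in coding sequence, over a replicate 1 peak of rank 12234. The dumpy gene dpy-17 had a peak 65 bp upstream of its start at rank 7210, over a replicate 1 peak of rank 3757 and none of replicate 2. It was the strongest peak within 500 bp upstream of any of the 18 body shape genes. The strongest pooled peak of sqt-3, whose product acts with that of dpy-17, ranked 11973. Its strongest own peaks ranked 16070 in replicate 1 and 3591 in replicate 2. The rol-8 peak ranked 13516 in the pooled list, and the gene's strongest own peaks ranked 2476 in replicate 1 and 12440 in replicate 2. The dpy-5 peak ranked 15983, over a replicate 1 peak of rank 4762. The blister genes bli-1 and bli-2, which encode strut collagens of the adult cuticle, had peaks at ranks 29141 and 27783, near the end of the list.

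Among those without a pooled peak, dpy-4 had peaks in both replicates' own lists, at rank 14940 of 30000 in replicate 1 and 16973 of 24744 in replicate 2. The body length gene lon-3 had 1 in replicate 2, at rank 16410. The roller gene rol-6 had none in any list and no pooled peak within 2000 bp. Of the 18 body shape genes, 3 had a peak supported by both replicates, against 15.3% of all genes, and these were sqt-1, dpy-10 and dpy-7.

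**Figure D4:**
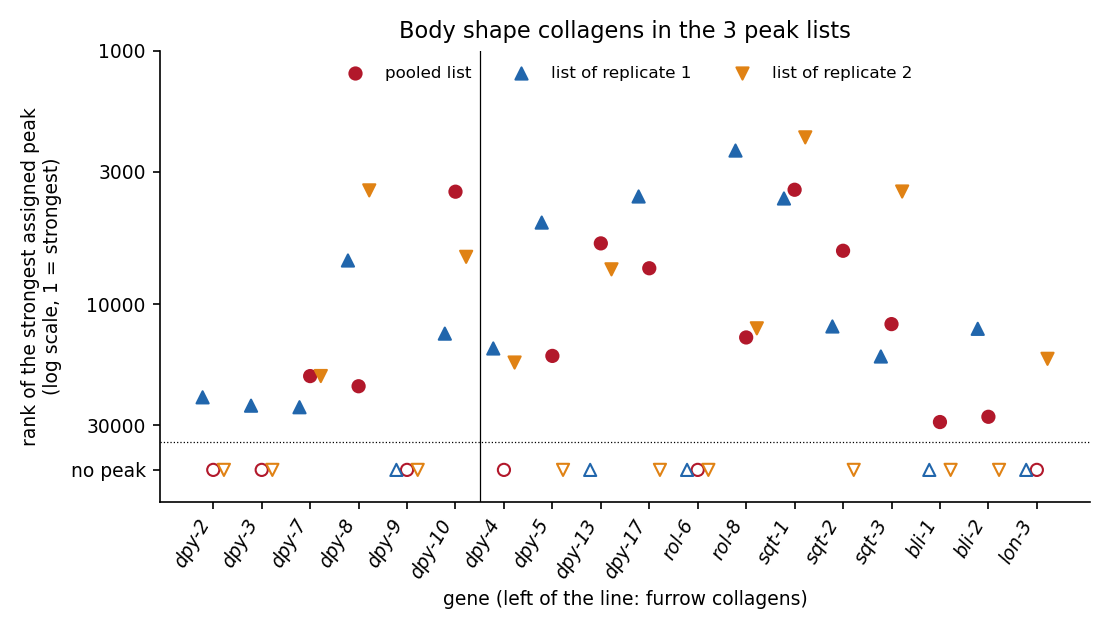
Rank of the strongest assigned peak (log scale, 1 the strongest) for each of the 18 body shape collagen genes in the pooled list, replicate 1 and replicate 2, with open symbols at the bottom where a list had no assigned peak. No gene ranked above 2000 in any of the lists, and dpy-9 and rol-6 are at the bottom in all 3.

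The share of collagen peaks with a forkhead core was close to that of all assigned peaks. The strict core, GTAAACA or ATAAACA on either strand, occurred within 50 bp of the centre of 5 collagen peaks (3.52%, interval 1.51 to 7.98), those of col-94 (the IDR peak), col-183, col-14, col-141 and col-151, against 4.31% of all assigned peaks. A degenerate core, which also admits GCAAACA or ACAAACA or GTAAATA or ATAAATA or GCAAATA or ACAAATA, occurred at 27 (19.0%), against 17.3%. GAGAGA was at 12 (8.45%), against 8.41%, and the GATA core (AGATAA or AGATAG or TGATAA or TGATAG) was at 24 (16.9%), against 19.4%. In promoter windows from 250 bases before to 50 after the start, peaks disregarded, the strict core occurred in 21 of 174 collagen genes (12.1%), against 13.8% of all genes. The degenerate core, which contains the strict one, was in 39.1% against 52.3%, GAGAGA in 28.7% against 21.8% and the GATA core in 62.1% against 54.5%. A match describes the letters and is not a binding site.

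The peak centres below, 101 bases each, lay within 500 bp upstream of a collagen start and are shown for the core they hold there. Those of col-183 and col-141, 78 and 310 bp upstream, were the only such collagen peaks with the strict core. Those of the body shape genes dpy-17 and dpy-8 are examples with the degenerate core. Capitals mark the core, plus strand 5′ to 3′, from the RefSeq WBcel235 genome. The windows are chrX:13467792-13467892, chrV:6829344-6829444, chrIII:5107215-5107315 and chrX:5150706-5150806 in that order.
col-183 peak centre: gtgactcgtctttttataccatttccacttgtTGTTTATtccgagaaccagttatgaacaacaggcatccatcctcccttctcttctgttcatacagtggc
col-141 peak centre: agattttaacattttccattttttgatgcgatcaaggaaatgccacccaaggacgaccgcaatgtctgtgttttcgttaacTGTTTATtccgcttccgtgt
dpy-17 peak centre: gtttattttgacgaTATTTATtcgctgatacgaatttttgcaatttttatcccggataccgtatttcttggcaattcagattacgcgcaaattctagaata
dpy-8 peak centre: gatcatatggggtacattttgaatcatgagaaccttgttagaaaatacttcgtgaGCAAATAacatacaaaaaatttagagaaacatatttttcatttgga

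The core at col-183, as at col-141 and dpy-17, is read on the minus strand. The col-183 peak ranked 16842 and overlapped no replicate peak, and the col-141 peak ranked 29274 and overlapped none. Neither of these pooled peaks was therefore backed by a single library. Another col-141 pooled peak, 136 bp downstream of the start at rank 10944, overlapped a replicate 1 peak of rank 4447. The list of replicate 1 also had a peak assigned to col-183, at rank 24776. The start of col-184 was also in reach of the col-183 pooled peak.

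The replicates' own lists differed in which collagen genes they held, as they did over all genes. Replicate 1 had a peak assigned to 97 genes (55.7%, interval 48.3 to 62.9), against 60.4% of all genes, and replicate 2 to 78 (44.8%, interval 37.6 to 52.2), against 54.2%. Both lists held 47 (27.0%, interval 21.0 to 34.1), against 36.9%. No collagen gene was among the 203 strongest peaks of either replicate. Among the 1000 strongest there were 3 in replicate 1 (1.72% against 3.49%) and 5 in replicate 2 (2.87% against 3.35%).

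The 3 strongest collagen peaks of replicate 2 lay under pooled peaks that overlapped no peak of replicate 1. At col-177 the replicate 2 peak of rank 303 lay 469 bp from the start, while that of replicate 1, rank 1329, lay 1266 bp from it. The replicate 2 peak of col-186, rank 348, lay 147 bp upstream, and replicate 1 had no peak assigned to the gene. The replicate 2 peak of col-171, rank 374, lay 1670 bp downstream, in coding sequence, and the col-171 peak of replicate 1 ranked 18737. In replicate 1 the order began with col-181 and col-94 and went on with col-55, rank 977. These genes were chosen for their ranks and are a description of single libraries.

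The genes with most peaks were col-14, with 4, and col-158, col-185, col-55, col-91 and sqt-1, with 3 each. Of the col-14 peaks, that 1796 bp upstream ranked 4882 in the pooled list and 676 in replicate 2, and that 294 bp upstream ranked 6238 and overlapped no replicate peak. The other two, 208 and 1425 bp downstream of the start, ranked 24494 and 25995. None of the 4 overlapped both replicates. The strongest col-91 peak, 488 bp upstream in an intron of ncr-2, ranked 2354 and overlapped a replicate 1 peak of rank 6786 and none of replicate 2. The col-185 and col-55 sets reached ranks 4161 and 6553, again without a peak in both replicates.

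Some collagen genes hold much sequence that also occurs elsewhere in the genome, and its part in the counts above was not tested. Windows of 31 bases that occur elsewhere in the genome made up over 10% of the gene in 44 collagen genes (25.3%), against 15.8% of all genes. Of these, 18 had an assigned pooled peak (40.9%), against 45.6% of all such genes. Of the 130 collagen genes with less repeated sequence, 82 had one (63.1%), against 64.1%. Peaks supported by both replicates were at 12 of those 130 (9.23%), against 16.4%. At col-12 and col-13 (71.8% and 83.6% of windows repeated), col-12 had a pooled peak at rank 20966 within reach of both starts and col-13 had none assigned. Values at these genes are uncertain. The read length was not given, so 31 bases is a choice.

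**Figure D5:**
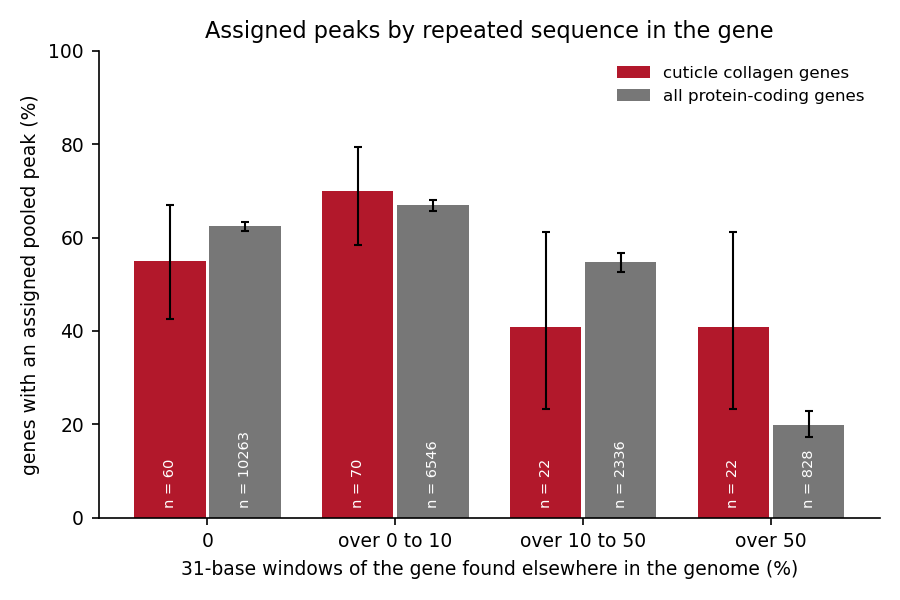
Percentage of genes with an assigned pooled peak by the percentage of their 31-base windows found elsewhere in the genome, for cuticle collagen genes and all protein-coding genes, with 95% Wilson intervals and the number of genes in each bar. Among genes with over 50% repeated windows the collagen share was 40.9% of 22 genes, against 19.9% of 828, and in the other bins it was 55%, 70% and 40.9%, against 62.4%, 66.9% and 54.7%.

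Collagen genes also lie beside one another. Of them, 48 had another collagen gene as a neighbour, and 28 of these had a peak (58.3%), as did 72 of the other 126 (57.1%). Another collagen start was within 2000 bp for 14 of the 142 peaks, and some other protein-coding start for 55 (38.7%, against 31.6% of all assigned peaks). Of the 14 peaks with another collagen start in reach, the highest-ranked was a col-150 peak at rank 3264, 864 bp from its start in coding sequence, with col-149 also in reach and no replicate peak under it. Peaks were assigned to 23 of 32 collagen genes on chromosome II (71.9%, against 60.3% of all genes there) and 22 of 30 on X (73.3% against 70.3%). The shares were 21 of 44 on IV (47.7% against 57.9%), 15 of 33 on V (45.5% against 56.5%), 10 of 22 on I (45.5% against 63.1%) and 9 of 13 on III (69.2% against 63.7%). Just inside the 2000 bp limit was a col-97 peak, 1947 bp away at rank 8590, and just outside was a second peak near col-94, 2002 bp away at rank 2083.

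Genes that work with the collagens were described by lists, beside the 61.2% of all genes with an assigned pooled peak and the 15.3% with one supported by both replicates. Over all genes, those with an assigned peak had a median of 3.30 kb of sequence nearest to their starts, against 2.56 kb without. The lists were not matched for this length, and its part in their counts was not tested. Of 21 regulators of the epidermis and of moulting time, 20 had an assigned pooled peak, 8 had one supported by both replicates, and none had an IDR peak. The zinc-finger repressor gene blmp-1 had a peak 124 bp upstream at rank 1488, over peaks of rank 8096 and 2663 in replicates 1 and 2. The period homologue lin-42 had an intron peak at rank 480, over ranks 1856 and 414. The moulting regulator myrf-1 had an intron peak at rank 447, over ranks 296 and 20450. The grainyhead gene grh-1 had a coding peak at rank 2558, over rank 392 in replicate 1 alone. Each of these 4 genes except grh-1 had support in both libraries.

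Of 29 collagen processing and moulting genes, 18 had a pooled peak and 6 one supported by both, and the strongest were those of rol-3, mlt-11, nas-7 and mlt-7, at ranks 1460 to 4610. Of 22 cuticlin and zona pellucida genes, the other structural proteins of the cuticle, 16 had a pooled peak and 6 a supported one, led by cutl-8, cutl-10, cutl-7 and noah-2 at ranks 1468 to 6361. Of 14 genes of body size signalling by the TGF-beta family, 13 had a pooled peak and 6 a supported one. The Schnurri homologue sma-9 had an IDR peak at rank 166, 1881 bp upstream, over ranks 687 and 294, and the receptor gene daf-4 had a pooled peak at rank 485 that overlapped both replicates. The other two named by the same rule, drag-1 and lon-2, ranked 1121 and 1577.

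The collagens of the basement membrane are a separate class, which lies under the tissues and not in the cuticle. The type IV gene let-2 had an IDR peak 1928 bp upstream at rank 66, over ranks 58 and 3901 in replicates 1 and 2. The type IV gene emb-9 had a pooled peak at rank 1053, 1892 bp upstream, over rank 458 in replicate 1 and none in replicate 2. The third, cle-1, had a peak at rank 24035 over no replicate peak. The let-2 peak ranked above every cuticle collagen peak, and the sma-9 peak above all of them except that of col-181.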

How the data were processed

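FKH-2 ChIP-seq peak lists of 2 biological replicates of L3 larvae were analysed on ce11. Per the deposited text files, the authors derived the IDR set from the pooled and replicate lists, which they had made from alignments and a control file. The aligner, peak caller, versions and IDR threshold are not given in the sources used here. The lists hold the authors' score for each peak, used only for ranks within a list, and a deposited −log10 of the q-value, which was turned into a q-value for the threshold of 0.05. The ce10 lists were not used here.

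Scripts in Python 3.11.15 with NumPy 2.4.6, SciPy 1.17.1 and matplotlib 3.10.9 assigned peak centres to the nearest protein-coding transcript start of Ensembl release 115 within 2000 bp, using all annotated starts. A centre that fell in several features counted for the first of 5′ UTR, coding sequence, 3′ UTR, other exon and intron, and otherwise as intergenic. Overlap meant at least 1 bp. Matches to motifs on either strand were taken up to 50 bp from the centre, in the RefSeq sequence of the same assembly. Repeated sequence was the share of 31-base windows of a gene that occur elsewhere on either strand. The scripts were checked on made-up genes and peaks with known answers. No test was run across genes or peaks. The sequence of 1 peak is not reported here.

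Members, lists and alternatives were chosen with earlier results of these data known. Genes named are those with IDR peaks, the 12 with the strongest pooled peak overlapping both replicates, the 18 body shape genes, the 3 with most peaks (6 with ties) and up to 4 of each companion list. Others, such as those leading a replicate's own list or sharing a peak or a motif, were named after their values were seen. Alternatives changed the reach, the gene counted, the set of starts, the peak threshold, the overlap, the windows and the replicate, and left out repeated genes or peaks beside small RNA genes.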

Additional observations from a re-analysis of the deposited data

How the results depend on the processing

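Of 58 alternative values, 1 turned the direction, 14 moved by more than the interval or 1.5 times, and 43 did neither. The difference in share with a pooled peak, -3.706 percentage points (collagen minus all genes), became 3.265 when every gene with a start within 2000 bp was counted, -0.4902 with the 5-prime-most start of each gene, and -9.371 and -4.654 without replicate 1 and without replicate 2. The 100 collagen genes with a pooled peak became 30 at a q-value of at most 0.05 and 17 in the 5000 strongest peaks, and 78 to 97 with 1 replicate's own list. The 15 with support from both replicates became 24 when every gene in reach was counted, 9 with an overlap of at least 50% of the pooled peak, and 1 when only the 5000 strongest peaks of each replicate counted. The 2 with an IDR peak became 0 within 1000 bp, 0 in each replicate's own 203 strongest peaks, and 0 without peaks beside small RNA genes. The median pooled rank of 14288 became 4648 at a q-value of at most 0.05 and 2763 in the 5000 strongest. The 40.85% of collagen peaks within 500 bp became 28.51% when every gene was counted, 22.22% in the 5000 strongest and 20.42% within 250 bp. The share of peaks with a strict forkhead core, 3.521%, became 7.042% within 100 bp of the centre. Some of these moves are set by definition. Stricter sets hold fewer peaks, and the 5000 strongest have no rank beyond 5000. Counting every gene in reach can only add genes. A limit of 250 bp lies within that of 500 bp, and a wider motif window can only add matches. The cause of the other moves was not tested. The difference in support from both replicates, -6.665 percentage points, ran from -5.178 to -7.195 in its alternatives. Those of that difference, those that left out repeated genes or peaks beside small RNA genes, and those of the coding share (40.14%, from 33.33% to 46.48%) were chosen after seeing the data. No paired analysis was possible because the design holds 1 group. Depth was unknown, so an absent peak is no sign of absent binding, and 18 supported peaks limit every share taken over them.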
